A study of Homo sapiens with 11 samples.

Results

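The cytosolic ribosomal protein genes are described here in a human renal carcinoma line after knockdown of AKR1A1, an aldo-keto reductase that reduces aldehydes to alcohols with NADPH. The members were the genes whose deposited symbol is RPSA, RPLP0, RPLP1, RPLP2 or RPL or RPS with a number, allowing a final A or X. The rule found 76 of 33080 genes, 46 of the large and 30 of the small subunit. All 76 passed the filter on low values in each comparison.

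RNA was sequenced from 769-P cells, an established line from a clear-cell renal carcinoma, in 11 libraries. A first siRNA against AKR1A1 (si1) was used for 3 samples, a second one (si2) for 4, and a control siRNA (siSCR) for 4. In all groups cells in 6-well plates received the siRNA, labelled at 20 µM, with the lipid reagent RNAiMAX for 48 h. The labels call the genotype of the si1 and si2 samples AKR1A1-/-, but the agent was an siRNA, which lowers the mRNA and leaves the gene intact. Whether the samples of a group came from separate experiments is not stated, and the p-values below therefore reflect sample-to-sample spread, which may be technical.

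A ribosome joins a small subunit, which reads the mRNA, and a large subunit, which makes the peptide bond. Their proteins are made in near-equal amounts from genes scattered over the genome, and their mRNAs share a 5′ terminal oligopyrimidine (TOP) tract: a C at the cap followed by a run of C and U. Through this tract, the mTORC1 kinase and the cap-binding protein LARP1 set the translation and the stability of these mRNAs together. Clear-cell renal carcinomas are known for altered mTOR signalling, and mTOR inhibitors are used to treat them.

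The tract can be seen at the annotated start sites. The RefSeq windows (GRCh38.p14) of 10 members on which the results turn are shown as DNA, from 15 bases before the start to 15 bases from the start on. Capitals mark a C at the start and the unbroken C or T after it or, where there is no such tract, the nearest one within 5 bases of the start. They are the stalk proteins, the members with the largest differences, and RPS14 and RPL27A as members of very high level.
RPLP0 (chr12:120201097-120201126, minus strand): gcgcgggcgcgaggcCCTTCTCTCgccagg
RPLP1 (chr15:69452803-69452832, plus strand): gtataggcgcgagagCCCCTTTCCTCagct
RPLP2 (chr11:809952-809981, plus strand): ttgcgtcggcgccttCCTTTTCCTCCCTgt
RPL10 (chrX:154398362-154398391, plus strand): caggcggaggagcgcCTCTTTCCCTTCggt
RPL27A (chr11:8682777-8682806, plus strand): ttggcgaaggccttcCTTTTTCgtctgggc
RPL41 (chr12:56116618-56116647, plus strand): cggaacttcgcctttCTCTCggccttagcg
RPSA (chr3:39406705-39406734, plus strand): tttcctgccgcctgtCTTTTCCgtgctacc
RPS7 (chr2:3575245-3575274, plus strand): gtttccgccctcCTCCTCgcgctgtttccg
RPS14 (chr5:150449725-150449754, minus strand): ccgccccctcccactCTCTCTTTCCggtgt
RPS28 (chr19:8321481-8321510, plus strand): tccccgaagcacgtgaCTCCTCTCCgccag

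In 8 of these 10 windows the marked tract began at the annotated start itself, in RPS28 at base 2 and in RPS7 3 bases before the start. RPL10 has 3 RefSeq starts, and a start with the tract was preferred for the window shown. In RPS7 and some other windows the letters directly before the capitals are C or T too, so the run of pyrimidines is longer than the part marked. Of the 61 members with a RefSeq start window, 45 (73.8%) had a C at the start followed by at least 4 C or T, 28 of 38 in the large and 17 of 23 in the small subunit. Among all 27305 genes with a window, 5.14% did. Here and below, a gene with several starts was counted if the window of any of them matched. Allowing the tract to begin within 5 bases of the start, 85.3% of the members and 25.2% of all genes had one. The letters CCGGAAG, searched on both strands from 250 bases before the start to 50 after it, were in the windows of 34.4% of the members and 12.2% of all genes. The palindrome CACGTG was in 6.56% of the members' windows and 8.77% of all windows. RPS28 was among the 4 members with it, and its last base lay 1 base before the start.

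Libraries held 2108546 to 5939514 reads assigned to genes. AKR1A1 had 81.7, 23.6 and 45.1 normalized counts in si1 libraries and 56.6, 32.1, 48.3 and 46.1 in si2 libraries, against 390, 256, 200.1 and 242 in siSCR libraries. The normalized count is the authors' read count divided by a library size factor. AKR1A1 fell with both siRNAs, with log2 fold changes of -2.54 ± 0.42 (SE, adjusted p = 0.0357) for si1 and -2.53 ± 0.24 (adjusted p = 0.00218, both limma) for si2. Of markers of the labelled cell type, the renal transcription factor PAX8, VIM, KRT8 and KRT18 were read in every library and CA9 was listed at 0 in all 11. KRT18, a keratin of simple epithelia, had 325 to 470 normalized counts in si1 libraries, against 673 to 831 in siSCR libraries (log2 difference -0.97 ± 0.20 (SE), adjusted p = 0.0564, limma). Of 6 markers of other cell types, CD3E, PECAM1 and CDH5, for T cells and endothelium, were listed at 0 throughout, and PTPRC, for leukocytes, and PDGFRB, for pericytes and fibroblasts, had at most 1.77 and 9.17 normalized counts in a library. COL1A1, a collagen of fibroblasts, had 12.3 to 30.5 normalized counts in si1 libraries, 34.7 to 58.4 in si2 libraries and 16.3 to 47.1 in siSCR libraries. It was called higher with si2 than with si1 by 1.38 ± 0.32 on the log2 scale (adjusted p = 0.0429, limma). Summed, the 6 markers had 14.1 to 30.5 normalized counts in si1 libraries, 38.9 to 61.0 in si2 libraries and 25.5 to 53.6 in siSCR libraries, and their part in the results was not tested. Mitochondrially encoded transcripts took 6.57% to 11.1% of reads in si1 libraries and 4.59% to 5.12% in si2 libraries, against 12.1% in siSCR 1 and 3.46% to 4.46% in the other siSCR libraries. In bulk RNA, a change in the mix of cells and a change in RNA per cell cannot be told apart.

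As a class, the members took a larger share of the reads in the si1 libraries. They held 14.0%, 13.5% and 13.3% of reads in si1 libraries 1 to 3 and 11.2%, 10.5%, 12.3% and 11.9% in si2 libraries 1 to 4, against 10.8%, 11.4%, 11.7% and 11.4% in siSCR libraries 1 to 4. Each si1 library lay above each siSCR library, while the si2 libraries lay on both sides of them. Large-subunit genes had 7.40% ± 0.11 of reads with si1 (SD, n = 3) and 5.88% ± 0.41 with si2 (n = 4), against 5.87% ± 0.22 with siSCR (n = 4). Small-subunit genes had 6.20% ± 0.33 with si1 and 5.58% ± 0.38 with si2, against 5.43% ± 0.15 with siSCR.

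**Figure D1:**
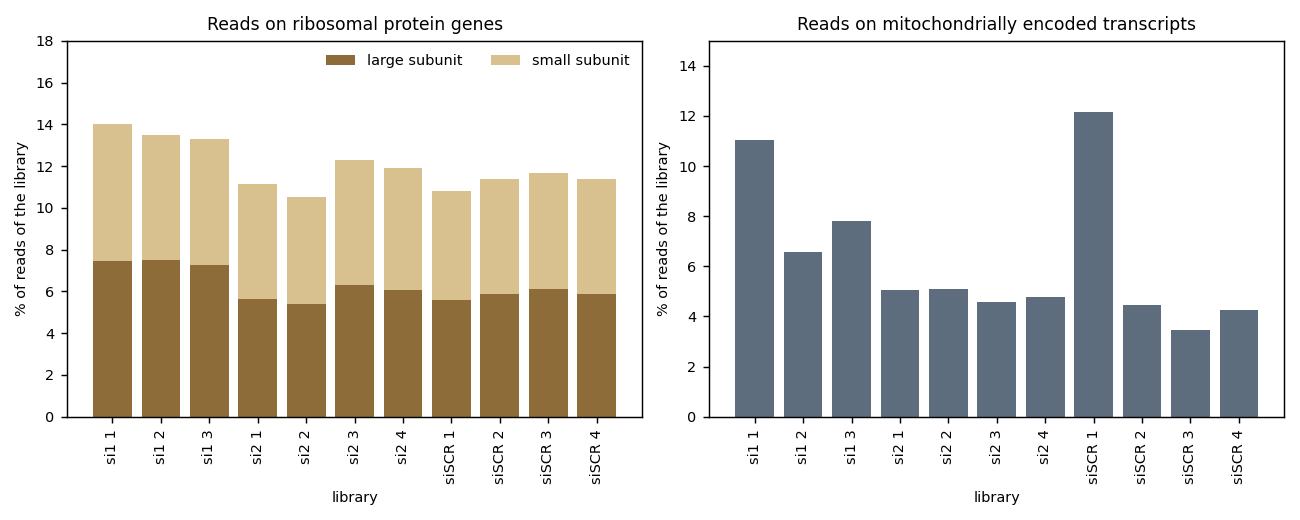
Share of each library's reads (%) on ribosomal protein genes, stacked by subunit (left), and on mitochondrially encoded transcripts (right), 1 bar per library. The si1 bars for ribosomal protein genes reach 13.3% to 14.0%, above the 10.8% to 11.7% of the siSCR bars; the mitochondrial share is 11.1% in si1 1 and 12.1% in siSCR 1.

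The balance of the subunits varied little among the si2 and siSCR libraries and more among the si1 libraries. The mean log2 level of the large-subunit genes minus that of the small-subunit genes was -0.40, -0.24 and -0.32 in the si1 libraries, -0.42, -0.40, -0.46 and -0.43 in the si2 libraries, and -0.41, -0.40, -0.40 and -0.42 in the siSCR libraries. The si2 and siSCR libraries lay close together, and the 3 si1 libraries lay above all siSCR libraries, si1 1 only just. RPS28, a small-subunit gene, was lowest in si1 2 and 3. Without RPS28 the difference was -0.39, -0.27 and -0.33 in the si1 libraries, -0.36, -0.34, -0.40 and -0.37 in the si2 libraries, and -0.34, -0.34, -0.34 and -0.35 in the siSCR libraries, so that the si1 libraries lay on both sides of siSCR.

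With si1, ribosomal protein genes were higher than with siSCR nearly throughout, by a small amount that limma did not call gene by gene and the authors' own test called in part. The log2 fold change was positive for 72 of 76 members, with a median of 0.41 over the members, 0.41 over the large and 0.41 over the small subunit, beside -0.03 over all 10517 genes tested. No member was called higher at an adjusted p under 0.05 (limma with Benjamini-Hochberg adjustment over all genes), where 0.789% of all genes were. In the authors' deposited table, from DESeq2, 29 members were higher with si1 at an adjusted p under 0.05, RPLP0 with the lowest of these at 1.63e-05, and RPS28 was lower. In that deposited table, 4.48% of the genes tested here were called higher. At an unadjusted p under 0.05 with limma, 37 members passed, 36 of them higher, beside 23.9% of all genes in either direction. In 47 members, 31 large and 16 small, every si1 library lay above every siSCR library, which was so for 10.8% of all genes tested. Leaving out any 1 library kept the members' median between 0.41 and 0.44.

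**Figure D2:**
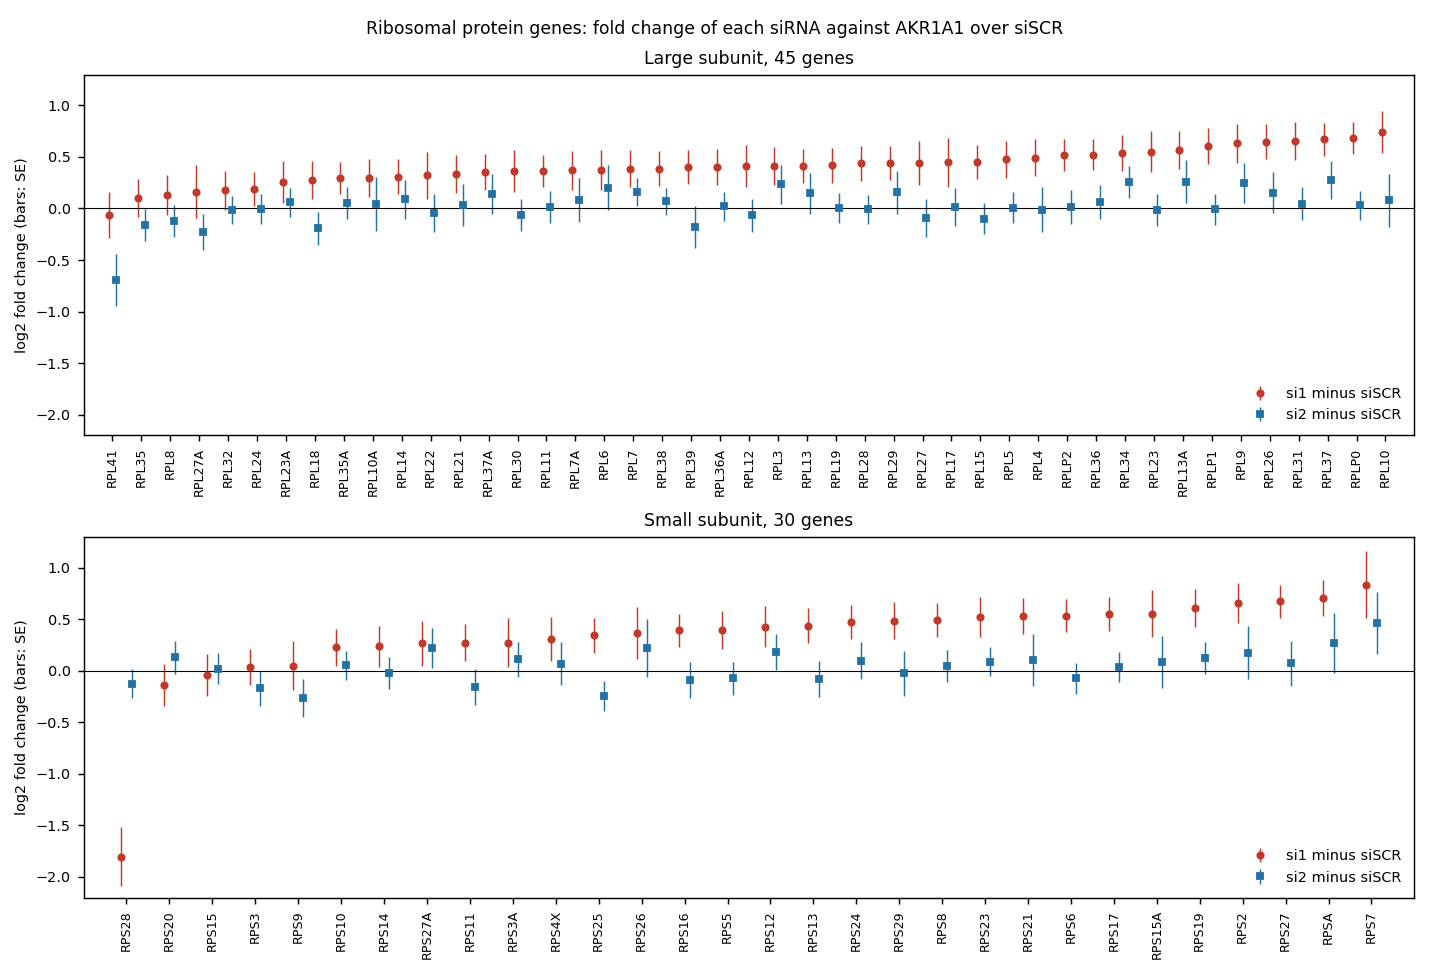
Log2 fold change (y axis, bars are SE) of 75 ribosomal protein genes in si1 (circles) and si2 (squares) over siSCR, large subunit above and small subunit below, ordered by the si1 value. The si1 values are positive for 71 of the 75 genes drawn and reach -1.80 for RPS28, while the si2 values scatter around 0.

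The stalk proteins, which recruit the translation factors to the large subunit, were among the clearest. RPLP0, the base of the stalk, had 11450, 10732 and 10706 normalized counts in si1 libraries, 6524, 6389, 7213 and 7807 in si2 libraries, and 6360, 7141, 7002 and 6800 in siSCR libraries. The si1 libraries did not overlap with either of the other groups, and the si2 and siSCR libraries overlapped. The log2 difference of RPLP0 was 0.68 ± 0.16 (SE) for si1 over siSCR (adjusted p = 0.0653, limma) and 0.03 ± 0.14 for si2 over siSCR. RPLP1, part of the flexible arm that RPLP0 carries, had 19429, 15319 and 17076 normalized counts in si1 libraries, against 12622, 10849, 10719 and 11005 in siSCR libraries. RPLP2, its partner, had 8355, 8151 and 8244 with si1, against 5562, 5635, 5903 and 5943 with siSCR. The log2 differences of RPLP1 and RPLP2 were 0.61 ± 0.17 and 0.52 ± 0.15 (adjusted p = 0.104 and 0.11, limma), again with no overlap.

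RPL5 and RPL11 form a particle with 5S rRNA that also binds MDM2, the ubiquitin ligase of p53. RPL5 averaged 5297 ± 799 normalized counts with si1 (SD, n = 3) and 3822 ± 510 with si2 (n = 4), against 3782 ± 144 with siSCR (n = 4), a log2 difference of 0.48 ± 0.18 (SE) for si1. RPL11 averaged 2924 ± 164 with si1 and 2309 ± 324 with si2, against 2274 ± 89.0 with siSCR, a log2 difference of 0.36 ± 0.16. Neither was called, although every si1 library lay above every siSCR library in both. The 9 large-subunit genes listed for the exit tunnel and its rim, through which the new chain leaves, had a median of 0.42, and all 9 values were positive.

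RPL10, which is added late in the maturation of the large subunit, had the highest value of that subunit. It had 3568, 3301 and 3321 normalized counts in si1 libraries, 1668, 1675, 3454 and 2200.3 in si2 libraries, and 1525, 2265, 2211 and 2232 in siSCR libraries. The si1 libraries lay above all siSCR libraries, with a log2 difference of 0.74 ± 0.20 (SE, adjusted p = 0.0916, limma). The si2 libraries were far apart, with si2 3 at the level of si1 and si2 1 and 2 near the lowest siSCR library. DNASE1L1, read from the opposite strand, overlaps RPL10, and 55.5% of the annotated exon bases of RPL10 are shared with other genes. Whether the counting used strand is not given in the sources used here, so reads of the overlap cannot be told apart. DNASE1L1 itself had 26.2 to 53.7 normalized counts in a library, beside 1525 to 3568 for RPL10.

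At the other end of the large subunit stood RPL41, a very short basic protein of the subunit's surface. It had 3828, 3247 and 3882 normalized counts in si1 libraries, 2322, 3258, 1527 and 2627 in si2 libraries, and 4583, 3797, 2752 and 4334 in siSCR libraries. All 3 groups overlapped. The log2 difference was -0.06 ± 0.23 (SE) for si1 and -0.69 ± 0.26 for si2 (adjusted p = 0.171, limma). RPL35, which sits at the exit of the tunnel, gave 0.10 ± 0.19 with si1, and RPL13A and RPL37 gave 0.57 ± 0.19 and 0.67 ± 0.16.

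In the small subunit, RPSA and RPS7 had the highest values with si1. RPSA, a protein near the mRNA exit that is also known as the laminin receptor, had 794, 844 and 805 normalized counts in si1 libraries, 471, 420 and 568 in si2 libraries 1, 2 and 4 and 1159 in si2 3, and 448, 544, 557 and 454 in siSCR libraries. The si1 libraries lay close together and all above siSCR, while si2 3 was the highest of all 11 libraries. The log2 difference for si1 was 0.71 ± 0.17 (SE, adjusted p = 0.073, limma). RPS7, which takes part in the maturation of 18S rRNA, had 1092, 2459 and 1333 in si1 libraries, 1137, 795, 2101 and 1017 in si2 libraries, and 669, 897, 1188 and 754 in siSCR libraries. Its groups overlapped, and its log2 difference of 0.84 ± 0.33 for si1 was 0.49 without si1 2. RPS27A, made as a fusion with ubiquitin, averaged 15911 ± 4543 with si1 and 15376 ± 3687 with si2, against 12909 ± 642 with siSCR, with overlap.

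RPS28 went the other way. This small protein lies in the mRNA exit channel of the small subunit next to RPSA and RPS26. It had 6145, 2637 and 3822 normalized counts in si1 libraries, 11905, 12065, 13304 and 13539 in si2 libraries, and 13334, 13642, 13356 and 15013 in siSCR libraries. The highest si1 library held less than any library of the other groups, and within si1 the 3 libraries differed more among themselves than those of either other group. RPS28 fell by 1.80 ± 0.28 (SE) on the log2 scale with si1 (95% interval -2.46 to -1.15, adjusted p = 0.0341, limma), and it was the only member called in that comparison, where 1.72% of all genes were called. It was also the only member with every si1 library below every siSCR library, which 10.9% of all genes showed. Counted from the most negative log2 difference, RPS28 stood at 163 of the 10517 genes tested.

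With si2, RPS28 averaged 12703 ± 837 normalized counts (SD, n = 4), against 13836 ± 797 with siSCR (n = 4), a log2 difference of -0.12 ± 0.14 (SE, 95% interval -0.43 to 0.19). Between the siRNAs the difference was tested directly. RPS28 was higher with si2 than with si1 by 1.68 ± 0.28 on the log2 scale (adjusted p = 0.0172, limma), while AKR1A1 differed between them by 0.01 ± 0.39. With each library's mitochondrial share as a covariate, the difference of RPS28 between the siRNAs was 2.58 (adjusted p = 0.0226, limma). That share was higher in every si1 library than in every si2 library, so this fit cannot separate the share from the siRNA. Every si2 library lay above every si1 library in RPS28, as in 13.4% of all genes. RPS28 was the only member called between the siRNAs, where 6.74% of all genes were. In the authors' deposited tables, whose values are from DESeq2, the log2 fold change of RPS28 was -1.59 for si1 (adjusted p = 5.18e-09) and -0.12 for si2 (adjusted p = 0.839).

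The call of RPS28 with si1 was lost in 6 of the 7 fits that left out 1 library, while its direction was the same in all 7. In those 6 fits hardly any gene was called (0% to 0.0372% of all genes), beside 13.5% without siSCR 1 and 1.72% with all libraries. Leaving out any 1 library gave log2 differences between -2.12 and -1.51 for si1 over siSCR. The adjusted p then passed 0.05 only without siSCR 1 (0.0187), and was 0.0659, 0.0675 and 0.108 without si1 1, 2 or 3 and 0.117, 0.101 and 0.126 without siSCR 2, 3 or 4. For si2 over si1 the call was lost without si2 1, 2 or 4, at adjusted p of 0.0502 to 0.0551, all with limma. There 1.16% to 1.83% of all genes were called, beside 6.74% with all libraries. RPS28 (GRCh38, chr19:8321158-8323340, plus strand in GENCODE 29) shares 17.2% of its exon bases with KANK3 and 4.20% with NDUFA7, both on the opposite strand. KANK3 had at most 13.5 normalized counts in any library. NDUFA7, a subunit of respiratory complex I, had 176, 121 and 234 in si1 libraries and 178, 226, 206 and 249 in si2 libraries, against 177, 202, 229 and 230.2 in siSCR libraries, which is a small part of the counts of RPS28.

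**Figure D3:**
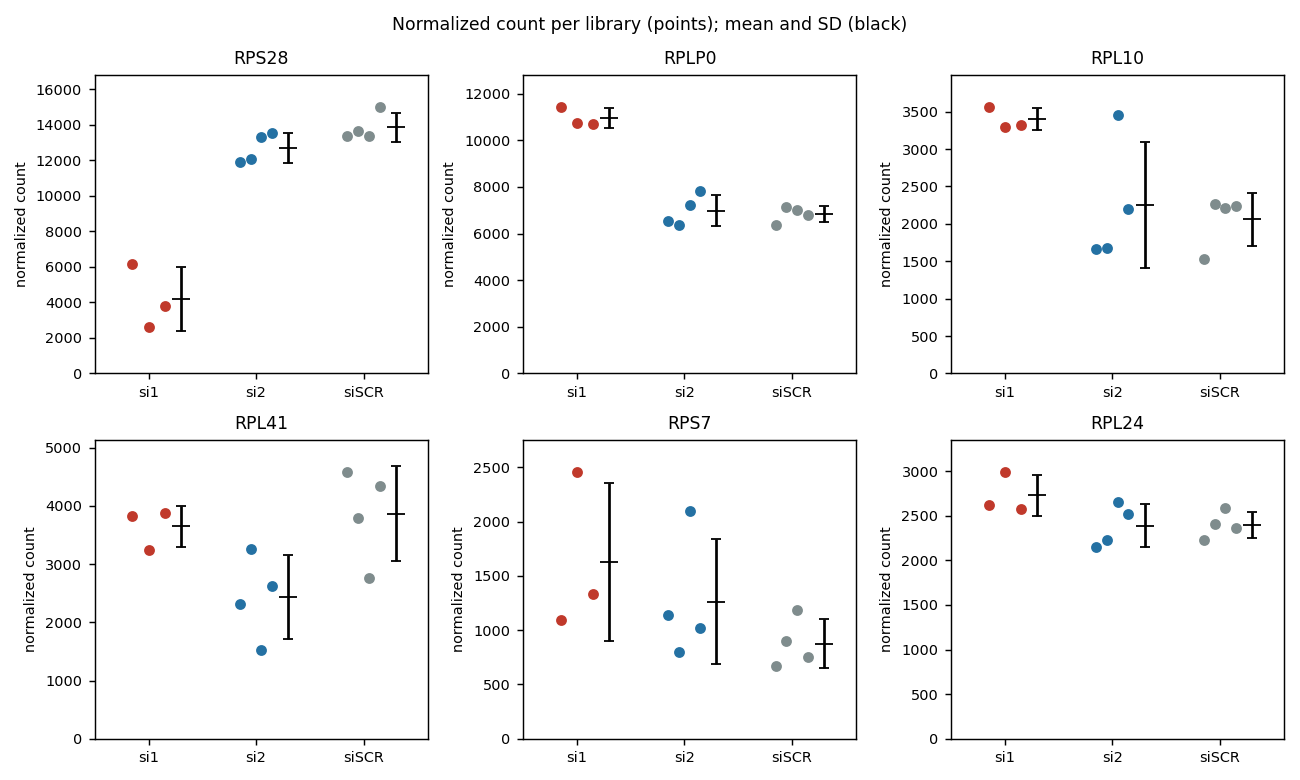
Normalized counts (y axis, from 0) of 6 ribosomal protein genes by library, with the group's mean and SD in black. RPS28 lies between 2637 and 6145 in si1 libraries and at 11905 or more in all others, RPLP0 is higher in all 3 si1 libraries, RPL10 is high in si1 and in 1 si2 library, and RPL24 varies little.

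The other members with a negative value for si1 were RPL41, RPS20 at -0.14 ± 0.20 (SE) and RPS15 at -0.04 ± 0.20, the last one named after its values were seen. None of these was called, and their libraries overlapped with siSCR. The 8 genes listed for the mRNA channel, to which RPS28 and RPS15 belong, had a lower median (0.26) than the members as a whole (0.41), with 6 positive and 2 negative values.

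With si2, the members stayed near the control. The log2 fold change was positive for 48 of 76 members, with a median of 0.04 over all, 0.02 over the large and 0.06 over the small subunit, beside -0.01 over all 10249 genes tested. No member was called by limma, where 3.12% of all genes were. RPL41 alone passed an unadjusted p under 0.05, beside 19.6% of all genes, and limma-trend and voom, another limma method on the whole reads, also called no member, beside 4.7% and 4.52% of all genes. In the authors' deposited table no member was called with si2, beside 5.8% of the genes tested here. In 1 member, RPL7, singled out after its values were seen, every si2 library lay above every siSCR library, beside 7.09% of all genes, and in none did all lie below, beside 5.5%. RPL7 had 5138, 4562, 4573 and 5125 normalized counts with si2, against 4327, 4430.2, 4198 and 4350 with siSCR.

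The most positive si2 values were 0.46 ± 0.30 (SE) for RPS7 and 0.27 ± 0.29 for RPSA in the small subunit, and 0.28 ± 0.18 for RPL37 and 0.26 ± 0.21 for RPL13A in the large. The most negative were RPL41, RPL27A at -0.23 ± 0.17, RPS9 at -0.26 ± 0.19 and RPS25 at -0.24 ± 0.15. In each of these members the si2 and siSCR libraries overlapped.

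Set directly against each other, the siRNAs differed in these genes. With si2 relative to si1, 73 of 76 members had a negative log2 difference, with a median of -0.39 over all, -0.39 over the large and -0.43 over the small subunit, beside 0.03 over all 10448 genes tested. In 28 members every si2 library lay below every si1 library, beside 11.6% of all genes. Apart from RPS28 no member was called. RPLP0 was nearest, with a log2 difference of -0.65 ± 0.17 for si2 over si1 (SE, adjusted p = 0.0541, limma). The comparisons of si1 and si2 with siSCR share the control libraries, and both comparisons of si1 share its 3 libraries.

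How many members were called depended on how the variance was modelled. For si1 over siSCR, limma-trend called 16 of 76 members, beside 6.77% of all genes, and voom on the whole reads 20, beside 5.53%. All of these were higher but RPS28. The fit without a low-count filter called none, beside 0.0301% of all genes. RPLP0, RPLP1, RPLP2, RPL10 and RPSA were among the members called higher by both limma-trend and voom. A fit of all 11 libraries together called 8 of the 76 members, beside 10.8% of all genes, and the fit without siSCR 1 called 10, beside 13.5%. In both of these fits the members' share was near that of all genes when both directions were counted. Called higher were 7 of 76 members beside 558 of 10517 genes in the fit of all libraries. Without siSCR 1, these were 9 of 76 members beside 725 of 10340 genes.

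The spread between libraries differed between the groups. The median SD of the log2 level over the members was 0.17 with si1 and 0.26 with si2, against 0.11 with siSCR. Over all genes with at least 10 normalized counts in every library of the group it was 0.31, 0.24 and 0.28 in the same order of groups. With si1 and siSCR the members' median was below that of all genes in this set, and with si2 it was near it. The set was chosen by the minimum of 10 normalized counts only and was not matched to the members in level. The part of level in the comparisons with all genes, here and in the next counts, was not tested. An SD above 0.3 was found in 13 members with si1 (17.1%) and 29 with si2 (38.2%), against 3 with siSCR (3.95%). Of all genes in the set it was found in 52.6%, 35.0% and 45.2% in the same order. With si2 the members' share was thus near that of all genes in the set, without matching for level.

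One si2 library, si2 3, lay apart from the other si2 libraries in many members, and also over all genes. For genes with at least 10 normalized counts in at least 3 libraries, the median absolute log2 distance from the group's other libraries was 0.31. In the other si2 libraries it was 0.17 to 0.24. Over the members it was 0.36 in si2 3 and 0.09 to 0.28 in the other si2 libraries. In si2 3, 46 of 76 members lay above all other si2 libraries and 13 below all of them. Relative to the mean of the other si2 libraries, 24 members were more than 0.5 log2 higher and 6 more than 0.5 lower. The log2 distance of RPSA was 1.26 and that of RPS7 1.11. RPL41 was lowest at -0.83, and RPS4X, with 8184 in si2 3 and 16022, 11295 and 12229 in the others, was at -0.67. The distances in si2 3 tended to be larger in members of low level (Spearman rho = -0.44 over 76 members, which share the library).

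Without si2 3 the median SD with si2 was 0.16. The members' median for si2 over siSCR was then -0.04, with 26 of 76 values positive, and that of RPSA -0.05. For si2 over si1 the median was -0.44 without it, and 50 members lay entirely below si1, beside 15.1% of all genes. In si2 2, 43 of 76 members were the lowest of their group, with a median distance of -0.25. The share of mitochondrial transcripts did not set si2 3 apart (4.59%, the lowest of 4 libraries between 4.59% and 5.12%).

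**Figure D4:**
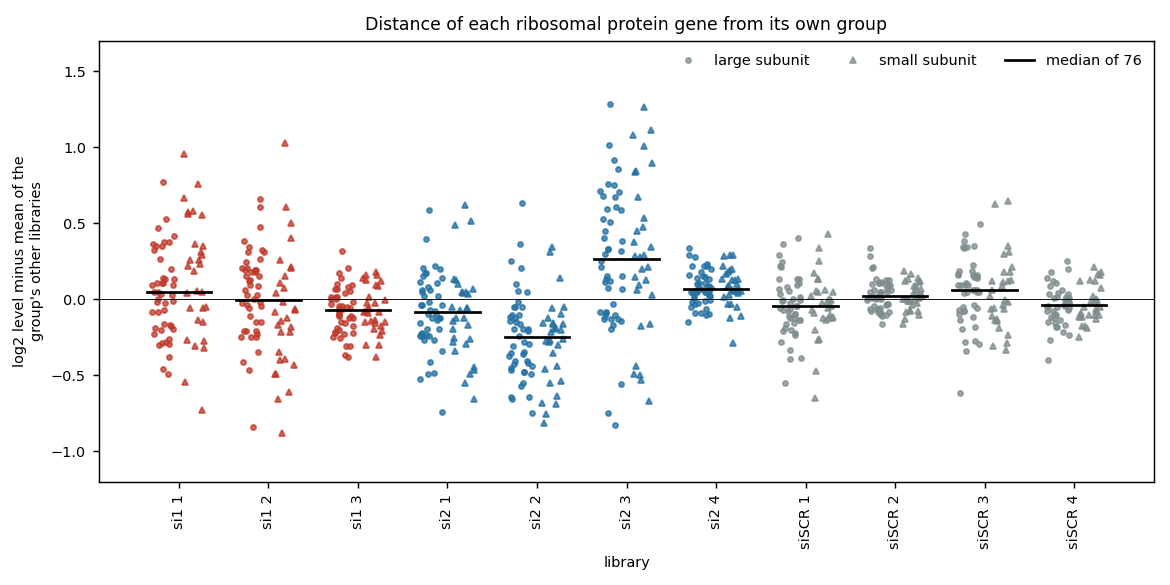
Distance of each ribosomal protein gene in each library from the mean of the other libraries of its group (y axis, log2), large subunit as circles, small subunit as triangles, black line at the median of 76. The points of si2 3 are spread widely around a median of 0.26, with RPL41 lowest at -0.83 and RPSA at 1.26, while those of si2 4 and siSCR 2 and 4 stay close to 0.

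In the si1 group, si1 1 lay above both other libraries in 39 members and below both in 22. Over all genes, the median distance measured as for si2 3 was 0.37, 0.44 and 0.29 in si1 1, 2 and 3. It was 0.40 in siSCR 1, so si1 1, si1 2 and siSCR 1 lay farther from their groups than si2 3 (0.31). The si1 group has fewer libraries, and the part of this was not tested. In si1 2, 11618 genes had a read in 2189728 reads, the fewest genes of all 11 libraries. In si1 3, 13163 genes did in 2108546 reads. The median SD with si1 was 0.11 without si1 1, 0.13 without si1 2 and 0.20 without si1 3, against 0.17 with all 3. The farthest members were RPS28, RPL27A and RPS7. In si1 2, the log2 distance from the mean of the other si1 libraries was -0.88 for RPS28, -0.84 for RPL27A and 1.03 for RPS7. In si1 1 it was 0.95 for RPS28, 0.77 for RPL27A and -0.73 for RPS7. RPL27A, a large-subunit protein, had 33617, 15946 and 24316 normalized counts in si1 libraries and 19616, 18893, 13454 and 20869 in si2 libraries, against 21388, 20306, 20215 and 22235 in siSCR libraries. Its siSCR libraries were close together, the si1 libraries lay on both sides of them, and 3 of 4 si2 libraries lay below them.

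**Figure D5:**
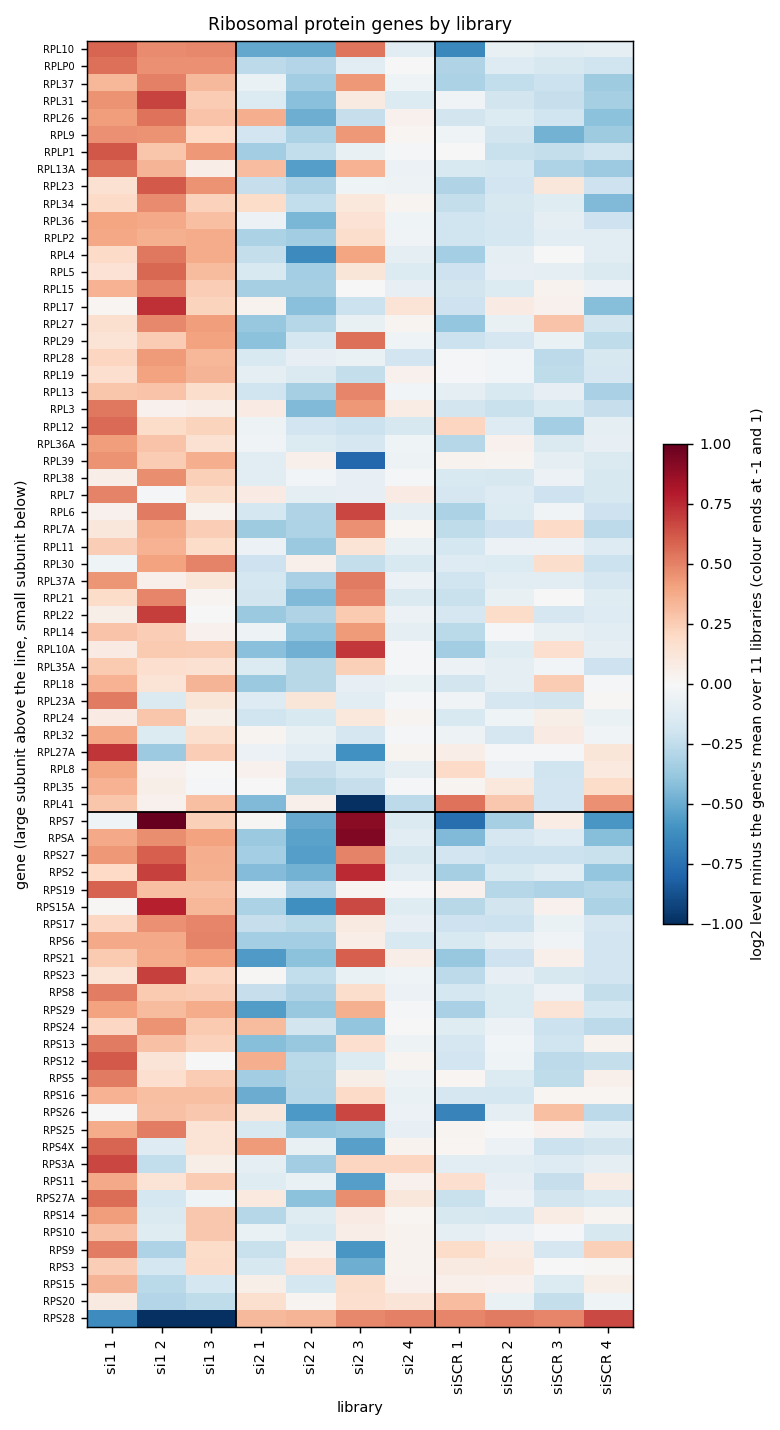
Log2 level of 75 ribosomal protein genes (rows, ordered within each subunit by the si1 difference) minus the gene's mean over 11 libraries (columns), in colour from -1 to 1. The 3 si1 columns are mostly above the mean with RPS28 as the exception, and si2 3 holds both high and low genes that differ from the other si2 columns.

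Levels of different members were compared per kilobase of the median length of their coding transcripts in GENCODE 29. RPL27A had 30795 normalized counts per kilobase over all libraries, RPLP1 29033 and RPL37A 27196, the highest of the large subunit. RPS14, next to the mRNA at the platform, had 21740 and RPS27A 20744, the highest of the small subunit. RPL22, which is also known to bind a viral noncoding RNA, had 573 and RPL29 924, and RPS26 397 and RPSA 674, the lowest named for each subunit. The median per kilobase was 4668 for large- and 7980.3 for small-subunit genes, although the proteins are needed in near-equal amounts. Lengths depend on the annotation: RPS28, with 8142 per kilobase, has a single coding transcript of 1326 bases there.

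The members that varied least over all 11 libraries were RPS10, RPL24, RPL35A and RPL32. The range of log2 levels was 0.45 for RPS10, 0.48 for RPL24, 0.54 for RPL35A and 0.55 for RPL32, beside 1.58 for RPL41, 1.88 for RPS7 and 2.51 for RPS28. RPL24, which bridges the subunits, averaged 2730 ± 228 normalized counts with si1 (SD, n = 3) and 2390 ± 238 with si2 (n = 4), against 2394 ± 147 with siSCR (n = 4).

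Features of the genes that the rule did not use were set beside the values. GENCODE 29 holds 1127 pseudogenes named after 75 of the 76 members, and 1 of them had a row in the tables, with at most 0.000281% of the reads of a library. Reads that match a gene and its copy can be lost or shared in counting, so the levels of members with many copies are less certain. The 39 members with 10 or more pseudogenes had a median log2 difference of 0.43 with si1 and 0.08 with si2, and the 37 with fewer had 0.39 and -0.01. The Spearman correlation of the si2 difference with the number of pseudogenes was 0.46 over 76 members, which share these libraries, and that of the si1 difference was 0.23.

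Within the bounds of 28 members, on the same strand, lie 60 annotated snoRNAs, the guides of rRNA modification. The 28 hosts had a median log2 difference of 0.42 with si1, and the 48 others 0.39. The members lie on 21 chromosomes, and chromosome 19 has 12 of them, with medians of 0.39 for si1 and -0.04 for si2. Transcript length did not go with the si1 difference (Spearman rho = 0.0028 over 76 members).

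Genes of the pathway outside the rule were taken from lists. FAU and RACK1, ribosomal proteins with other symbols, had si1 values of 0.30 ± 0.20 (SE) and 0.37 ± 0.16, and neither was called. Of 16 translation factors and other genes with TOP mRNAs, 13 had positive si1 values, with a median of 0.33, and 9 had positive si2 values, with a median of 0.07. Among all genes tested, 47.9% had positive values with si1 and 49.1% with si2. EEF1A1, the factor that delivers aminoacyl-tRNA, had the highest at 0.83 ± 0.20 (SE, adjusted p = 0.0701, limma). None of the 16 was called with either siRNA, beside 1.72% of all genes with si1 and 3.12% with si2.

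The 75 tested mitochondrial ribosomal protein genes serve the organelle's own ribosome and are not counted among TOP mRNAs. They had a median of -0.20 with si1, and 21 of 75 values were positive, beside 47.9% of all genes. With si2 their median was -0.09. None was called in either comparison with siSCR, beside 1.72% of all genes with si1 and 3.12% with si2. Of 8 listed paralogues of the members, 6 were tested with si1. They had 1 positive and 5 negative values, from -0.87 to 0.45 with a median of -0.30.

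Of 3 long noncoding hosts of snoRNAs in the tables, SNHG8 was called higher with si1, as were 0.789% of all genes. It had 448, 587 and 494 normalized counts in si1 libraries and 195, 165, 305 and 203 in si2 libraries, against 217, 243, 252 and 207 in siSCR libraries, a log2 difference of 1.14 ± 0.18 (SE) for si1. Of 10 genes that control the pathway none was called against siSCR, beside 1.72% of all genes with si1 and 3.12% with si2. MTOR gave 0.43 ± 0.22 and LARP1 -0.32 ± 0.18 with si1, and 0.07 ± 0.19 and -0.06 ± 0.16 with si2. Over the 10 genes, values ran from -1.70 to 0.44 with si1 (6 positive) and from -0.58 to 0.34 with si2 (4 positive). At an unadjusted p under 0.05 (limma), 1 passed with si1 and 3 with si2. Of all genes, 23.9% and 19.6% did. AKT1S1, which encodes the mTORC1 inhibitor PRAS40, had -1.70 ± 0.36 with si1 (adjusted p = 0.0586, limma) and was higher with si2 than with si1 by 1.60 ± 0.39 (adjusted p = 0.0471).

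The 13 mitochondrially encoded transcripts had a median of 0.44 with si1, with 11 positive values and none called, and a median of -0.10 with si2. Of all genes, 47.9% were positive and 1.72% were called with si1. Their part in the values of the ribosomal protein genes was not tested beyond fits with a covariate. With each library's mitochondrial share as a covariate, the members' median was 0.43 for si1 over siSCR with 70 of 76 values positive, and RPS28 was called (adjusted p = 0.0378, limma). In the fit of si2 over si1 with this covariate, the median was -0.48, with 18 positive values, against 3 without the covariate. The share was 6.57% to 11.1% in si1 libraries and 4.59% to 5.12% in si2 libraries, without overlap. The fit of si2 over si1 therefore cannot separate the share from the siRNA.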

How the data were processed

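The submitters' processing notes name cutadapt for trimming, FastQC, STAR with GRCh38 and HTSeq; per the labels, counts were normalized by relative log expression with DESeq2. Tool versions and strandedness: not given in the sources used here. Per library, the authors deposited log2 values, namely log2(normalized count + 1). Their tables also hold, per the file headers, DESeq2's mean normalized signal, fold change, p-value and adjusted value. Both tables hold the same control values. With the log and scaling undone, 100% of values were whole reads within 0.01, which gave the depth; precision is limited by this depth and the number of libraries.

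Here, limma 3.58.1 (R 4.3.3) was fitted to the log2 values, with pseudocount 1, of the 2 groups compared, without trend, on genes that reached a normalized count of 10 in a number of libraries equal to the size of the smaller group, with Benjamini-Hochberg adjustment over all of them. Fold changes are on this scale. Values of 1 member and 1 gene of the other lists are not reported here by name. The script was tested on simulated data. Members were found by deposited symbol, other lists by GENCODE 29 name. Genes with values were named by rule: called members, the extremes of fold change, level and range per subunit, and the stalk, 5S, RPSA and RPS27A genes. Members, lists and rules were chosen with earlier results of these data known. Alternatives covered scaling, filter, pseudocount, variance model, voom, all libraries in 1 fit, the mitochondrial share, the replicate number and leaving out each library.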

Additional observations from a re-analysis of the deposited data

Results flagged for a closer look

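RPS28 differed between the siRNAs, in a test of the difference itself: it was higher with si2 than with si1 by 1.68 on the log2 scale, with all 4 si2 libraries above all 3 si1 libraries. With the mitochondrial share as a covariate this difference was 2.58. All si1 libraries had a higher share than all si2 libraries, so that fit cannot separate share and siRNA.

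Of 62 sets of 4 library values checked, 3 held a library far from the other 3, and chance gives about 1 in 20. All 3 were in named members. RPL10 had 1525 normalized counts in siSCR 1 and 2211 to 2265 in the other siSCR libraries. RPLP1 had 12622 in siSCR 1 and 10719 to 11005 in the others. RPL22 had 441 in siSCR 2 and 345 to 355 in the others. The si1 libraries of RPL10 and RPLP1 lay above all siSCR libraries with siSCR 1 included.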

How the results depend on the processing

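The medians over members, large and small subunit kept their sign for si1 over siSCR and si2 over si1 under every alternative run. For si1 over siSCR, the count of called members, 1 as reported, was 0 without a filter (0.0301% of all genes called), 7 with a minimum of 50 (7.82%), 16 with limma-trend (6.77%), 20 with voom (5.53%), 8 with all 11 libraries (10.8%), 0 with the replicate block (0% of all genes) and 0 to 10 leaving out 1 library (0% to 13.5%). For si2 over si1 (1) it was 2 with upper-quartile scaling (6.84% of all genes), median scaling (6.87%) or pseudocount 5 (8.29%), 4 with a minimum of 50 (13.1%), 8 with limma-trend (10.2%), 10 with voom (11.2%), 5 with all libraries (7.56%), 0 with the replicate block (0.0574%) and 0 to 1 leaving out 1 library (1.16% to 7.54%); with the mitochondrial share as covariate the median of the large subunit was -0.49. For si2 over siSCR it was 0 throughout.

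The sign of small log2 differences turned. For si1 over siSCR, RPL41 (-0.06) was 0.0036 in the replicate block, and leaving out 1 library gave -0.21 to 0.030 for RPL41, -0.0082 to 0.17 for RPL35, -0.094 to 0.44 for RPL27A and -0.14 to 0.27 for RPS9, which was -0.061 with the mitochondrial share. RPSA for si2 over siSCR ranged from -0.048 to 0.44. The cause was not tested. Same-numbered libraries correlated in their deviations by 0.39, 0.10 and 0.13 for si1 and siSCR, -0.03 to 0.16 for si2 and siSCR and -0.0024 to 0.10 for si2 and si1, not above 0.1 in every pair, so the numbers were not taken as pairs. RPS28 had adjusted p of 0.154 for si1 and 0.121 for si2 over si1 in the replicate block.

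The part of depth in the number of members called was not tested.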
